A study of Mus musculus with 6 samples.

Results

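The leukocyte miRNAs mir-223, mir-142a, mir-150 and mir-342 were followed across mouse bone marrow cells (BM), mouse primary osteoblasts (OB), and extracellular vesicles of C2C12 myoblasts collected without (Myo-EVs) or with fluid flow shear stress (FFSS-Myo-EVs). They were chosen by name, and each of the 4 names matched 1 of the 1006 precursor entries in the authors' table. Small RNA was sequenced in 1 library of BM, 1 of OB, 2 of Myo-EVs and 2 of FFSS-Myo-EVs. C2C12 is a mouse myoblast line, and FFSS was applied by culturing the cells on an orbital shaker for 48 hours. All vesicles were pelleted by ultracentrifugation from medium with EV-depleted serum. BM and OB are labelled as unstressed controls from mice with a C57BL/6J share of 81.25% and a share of 129/SvJ of 18.75%, and the labels repeat this strain for the C2C12 vesicles. The labels give an age of 8 to 10 weeks for both cell types, whereas the methods describe osteoblasts grown from the calvariae of 5 newborn mice of 3 to 5 days and marrow from 1 mouse of 8 weeks. Whether BM was cultured before extraction is not given in the sources used here. The growth protocol in the labels mentions vitamin D and dexamethasone and not FFSS.

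A miRNA guides its silencing complex to messenger RNAs mainly through its seed, bases 2 to 8 of the mature strand. In blood formation, mir-223 is a miRNA of granulocytes and monocytes, which restrains myeloid proliferation and inflammation. The mir-142 precursor is processed in nearly all blood cell lineages. In mature B and T lymphocytes mir-150 is abundant and limits the transcription factor Myb. The mir-342 precursor sits within Evl, a gene for an actin regulator that is not limited to blood cells. Osteoclasts arise from the monocyte lineage of the marrow and osteoblasts from mesenchymal cells, which makes marrow and osteoblasts a contrast of blood lineage against mesenchyme.

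The mature strands are shown because, among those printed, no seed is shared between the 4 miRNAs. The strand miR-150-5p was not among the sequences available, so its seed was not compared. The seed is in capitals, and the sequences are from RefSeq on GRCm38.p6, the patched form of the mm10 assembly named in the submitters' processing notes.
miR-223-3p: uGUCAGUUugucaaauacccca
miR-142a-5p: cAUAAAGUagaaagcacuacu
miR-142a-3p: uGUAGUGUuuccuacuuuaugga
miR-150-3p: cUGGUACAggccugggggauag
miR-342-3p: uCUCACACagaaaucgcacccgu
miR-142b: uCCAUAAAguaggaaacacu
The last is the mature product of mir-142b, a separate entry on the other DNA strand of the mir-142a locus. For each of these strands, 0 other mature miRNAs of the 1679 names in the RefSeq table carry the same seed. The deposited table counts reads per precursor, so the 5p and 3p strands cannot be told apart, and miR-150-5p is counted together with miR-150-3p.

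In GRCm38 with the GENCODE M21 annotation, mir-223 lies on chromosome X from 96242817 to 96242926 on the plus strand, in an exon of the noncoding gene F630028O10Rik. The entry mir-142a lies on chromosome 11 from 87756864 to 87756927 on the plus strand in an intron of the noncoding gene Mir142hg. On chromosome 7, mir-150 spans 45121757 to 45121821 (plus strand) without overlap with another gene. On chromosome 12, mir-342 spans 108658620 to 108658718 (plus strand) within an intron of Evl.

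The libraries held 2414132 to 6092460 counts. Levels are given as the authors' normalized expression value, which is the count multiplied by 1 constant per library (from 0.397 in BM to 1.2 in a Myo-EV library). BM and OB have no replicate, so their intervals (95%, exact Clopper-Pearson) show the counting error alone, and reads amplified by PCR without molecular identifiers do not each stand for 1 molecule. Against their markers, OB carried the 8 mesenchymal entries (such as mir-199a, mir-214 and mir-143) at a summed value of 616365, against 40551 in BM. BM carried the 4 myeloid entries other than mir-223 and mir-142a (mir-146a, mir-155, mir-511 and mir-147) at 22104, against 1464.1 in OB. Nearly all of the BM sum was mir-146a (21525.7, against 1204.5 in OB). The value of mir-155 was 368.6 in BM and 249.1 in OB. In the EV libraries the 8 mesenchymal entries summed to 399522 to 512136, so the sum hardly separates OB from the vesicles. Most of the EV sums was mir-143 (274481.7 to 372549.3, against 269505.8 in OB). The other entries went both ways. Higher in OB were mir-199a-1, mir-199a-2, mir-199b (66862.0, against 8308.7 to 13493.5), mir-214 and mir-152. Higher in each EV library were mir-145a and mir-140 (43856.8 to 66413.6, against 38752.5 in OB). The 4 erythroid entries summed to 2363.7 in BM, with none at 0. The 6 muscle entries (mir-1a, mir-133 and mir-206) summed to 2052.9 to 2641.9 in the EV libraries, with 1 or 2 of them at 0, against 118.9 in OB and 71.9 in BM. Nearly all of the EV sums was mir-206 (1968.5 to 2610.0). The entries mir-1a-1 and mir-1a-2 went the other way, with 30.6 and 31.4 in BM and at most 6.0 in an EV library. The sums of the same 4 myeloid entries in the EV libraries, from 1293.9 to 2165.2, were nearly all mir-155 and mir-146a, while mir-511 was at 0 in each of these libraries.

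In bone marrow cells 3 members were abundant and 1 was not. There, mir-223 reached a value of 9710.3 (9589 to 9833, 24448 counts), the rank 35 of the 1006 entries. The value of mir-142a was 9066.5 (8949 to 9185, 22827 counts), and that of mir-342 was 8270.1 (8158 to 8383, 20822 counts). These 3 intervals do not overlap, so the order is resolved beyond counting error, with no replicate to give a biological spread. The place of mir-142a also depends on how reads were split with mir-142b (14666 counts in BM), which is uncertain. The lymphocyte miRNA mir-150 had a value of only 69.1 (59.2 to 80.2, 174 counts) and ranked 211, so of the summed value of the 4 members it made 0.255%, against 35.8% for mir-223. Read counts of different miRNAs also carry differences in ligation and amplification, so these levels order the entries within the table and not molecules per cell. The 4 members together took 1.12% of the BM counts, while mir-21a alone took 44.9%. The 4 other lymphoid entries, all of the mir-181 family, summed to 7042.1 in BM and 5436.9 in OB, with BM to OB ratios from 0.861 to 1.69, so outside the members the lymphoid list hardly separated the marrow from osteoblasts.

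**Figure D1:**
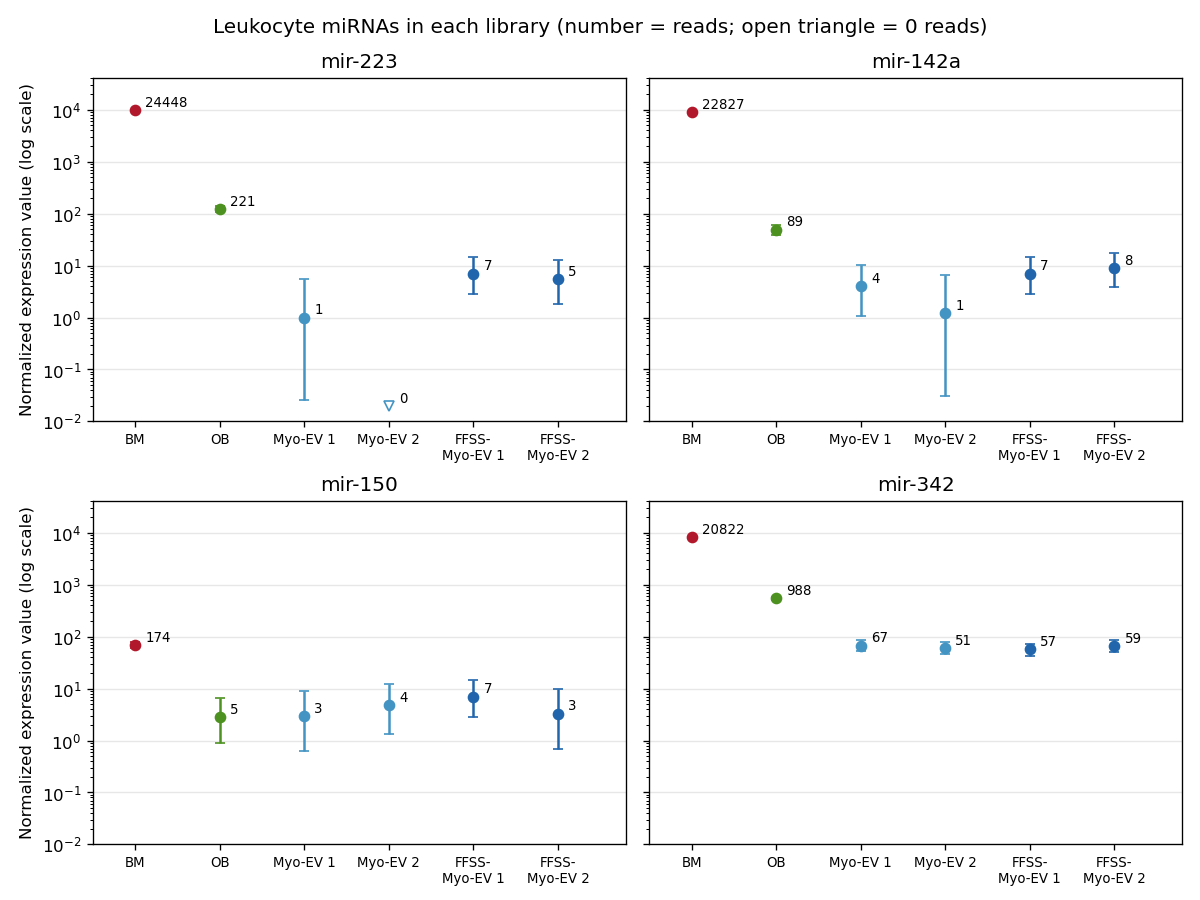
Normalized expression value (log scale) of the 4 leukocyte miRNAs in each of the 6 libraries, with the 95% counting interval and the number of reads beside each point. BM is highest in every panel, from 69.1 for mir-150 to 9710.3 for mir-223, and the open triangle marks the Myo-EV library with 0 reads of mir-223.

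In osteoblasts, all 4 members were detected below BM, but at unlike depths. The value of mir-342 was 545.6 in OB (512 to 581, 988 counts), and BM was 15.2 times as high (counting interval of the ratio 14.2 to 16.2). The value of mir-223 was 122.0 in OB (106 to 139, 221 counts), a BM to OB ratio of 79.6 (69.7 to 91.2). The value of mir-142a was 49.2 in OB (39.5 to 60.5, 89 counts), a ratio of 184 (150 to 230). The intervals of these 3 levels do not overlap, so the order in OB was mir-342 above mir-223 above mir-142a, with mir-342 last in the marrow and first here. For mir-150 the 5 counts in OB gave 2.8 (0.897 to 6.44) and a ratio of 25.0, with a wide interval of 10.5 to 78.0. Of the summed value of the 4 members in OB, mir-342 made 75.8%, against 30.5% in BM. In bulk samples, fewer cells of a type and less of the RNA per cell cannot be told apart.

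A ratio of at least 10 for BM over OB was reached by 4 of 4 members. Among 406 entries with mean values of 10 or more over both libraries, 9.11% did so, and the median ratio over them was 1.16. The entry mir-150 reached that mean only through its BM value. With other scalings of the libraries, the ratio of mir-223 lay between 68.2 and 134, that of mir-142a between 158 and 310, that of mir-150 between 21.4 and 42.1, and that of mir-342 between 13.0 and 25.5. All 4 members stayed above 10 with each of the 5 scalings. The upper ends came from leaving the most abundant entry, mir-21a in each library, out of the total.

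In the vesicles, mir-342 was the one member with a steady level. Its 4 values were 67.3 and 61.1 (Myo-EVs) against 56.8 and 65.3 (FFSS-Myo-EVs), so the groups overlap. The mean over the 4 EV libraries was 62.62 ± 4.66 (SD, n = 4), and BM was 132 times as high (116 to 151). Between 73.1% and 91.1% of the summed value of the 4 members in each EV library came from mir-342.

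The myeloid and lymphoid members other than mir-342 were at trace level in the vesicles, with at most 8 counts per library. For mir-223, Myo-EVs gave values of 1.0 and 0.0, from 1 and 0 counts, while FFSS-Myo-EVs gave 7.0 and 5.5, from 7 and 5 counts. The counting interval of the 0 counts in the second Myo-EV library reaches a value of 4.42. For mir-142a, the values of Myo-EVs were 4.0 and 1.2, from 4 counts and 1 count, and those of FFSS-Myo-EVs 7.0 and 8.9, from 7 and 8 counts. For mir-223 and mir-142a the values of FFSS-Myo-EVs lay above those of Myo-EVs, at no more than 8 counts per library. The share of all entries that separate in this way was not computed, so nothing is read from the separation. For mir-150 the groups overlap, at 3.0 and 4.8 (Myo-EVs) against 7.0 and 3.3 (FFSS-Myo-EVs), from 3 to 7 counts. The counting intervals of the 3 miRNAs overlap within each EV library, so their order there is not resolved.

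BM exceeded the mean of the 4 EV libraries 2874-fold for mir-223 (1632 to 5244, 13 counts in the 4 EV libraries), 1723-fold for mir-142a (1097 to 2775, 20 counts) and 15.3-fold for mir-150 (9.22 to 26.7, 17 counts). The fold for mir-223 lay between 2155 and 4453 as single EV libraries were left out, the highest without FFSS-Myo-EV library 1. Over the 5 scalings the fold ran from 2874 to 5089 for mir-223, from 1723 to 3010 for mir-142a, from 15.3 to 26.7 for mir-150 and from 132 to 228 for mir-342, so the authors' scaling gave the lowest values. Each of the 4 members was at least 10-fold higher in BM than in the EVs, although the interval of mir-150 reaches below 10. Among the 391 entries whose mean value reached 10 the share was 7.93%, and mir-223, mir-142a and mir-150 entered that comparison only through their BM value, so nothing is read from the count of members. At least 10-fold above both OB and the EVs were 5.68% of the 317 entries compared with both, 18 in all. Ordered by their BM level, these were led by mir-146a (21525.7), a miRNA induced by NF-kB, followed by mir-223, mir-142a, mir-342 and mir-142b, and mir-150 was the last of the 18. The 18 also held the epithelial entries mir-200a, mir-200b and mir-200c, at 70.3, 220.8 and 219.2 in BM.

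**Figure D2:**
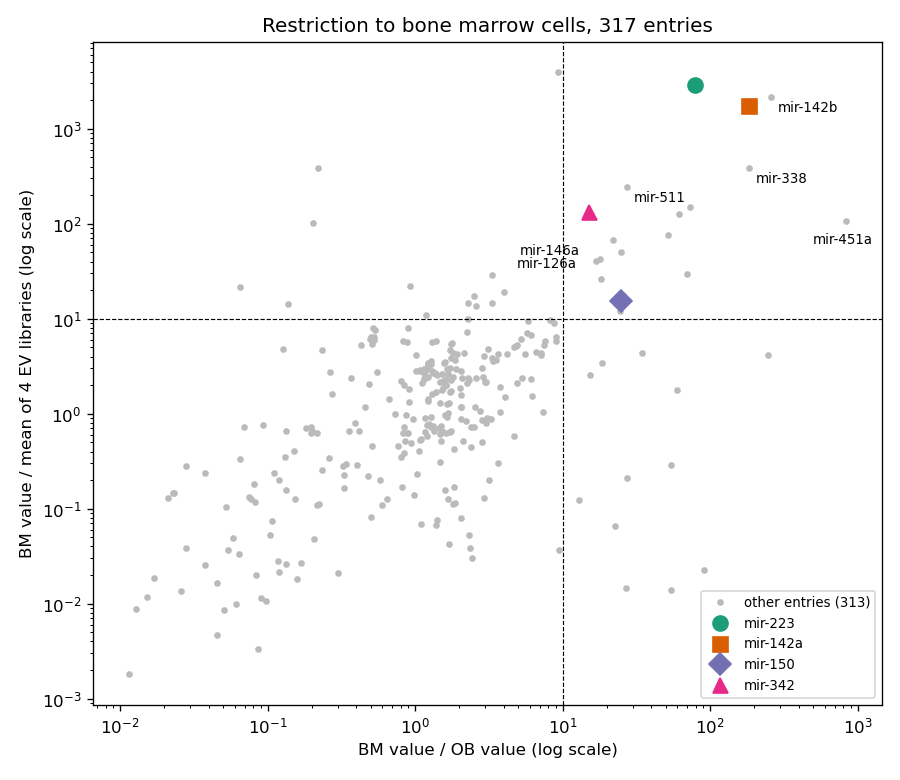
Ratio of the BM value to the OB value (horizontal, log scale) against the ratio of the BM value to the mean of the 4 EV libraries (vertical, log scale) for 317 entries, with denominators under 3 counts set to 3 counts. Dashed lines mark 10-fold, and the 4 members lie beyond both lines, as do, among others, mir-142b, mir-451a, mir-126a, mir-146a, mir-511 and mir-338.

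The traces were not a fixed fraction of the BM level. Values in OB were 1.26% of BM for mir-223, 0.542% for mir-142a, 4.00% for mir-150 and 6.60% for mir-342. Values in the EV libraries were 0 to 0.0718% of BM for mir-223, 0.0132% to 0.0977% for mir-142a, 4.36% to 10.1% for mir-150 and 0.687% to 0.813% for mir-342. The percents of mir-150 rest on 5 counts in OB and 3 to 7 counts per EV library, over a BM value of only 69.1. In Myo-EV library 1, 4.36% is 3 counts, the floor used here, so the fraction of mir-150 in the vesicles lies near the floor. For mir-223, mir-142a and mir-342, OB was above the mean of the EVs 36.1-fold (20.1 to 67.0), 9.34-fold (5.61 to 15.8) and 8.71-fold (7.55 to 10.1). For mir-150 the ratio of OB to the EVs was 0.610 with an interval of 0.175 to 1.71, which does not resolve a direction. Of all entries tested, 18.1% were at least 10-fold higher in OB than in the EVs, beside 1 of the 3 members tested, mir-223. Both mir-223 and mir-142a entered that comparison only through their OB value, so nothing is read from the count of members. Without FFSS-Myo-EV library 1 or library 2 mir-142a was at least 10-fold higher as well, and without FFSS-Myo-EV library 1 the ratio of mir-223 rose to 56.0.

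Erythroid and vesicle entries give the same measure in other directions. The erythrocyte miRNA mir-451a had 3489 counts in BM and 2 in OB, which is 0.0797% of the BM value, below the fraction of each of the 4 members. The macrophage miRNA mir-511 was at 3.67% of BM in OB (13 counts) and had 0 counts in each EV library. In the reverse direction, mir-881, with 6438 to 9822 counts in the EV libraries, had 1 count in BM and 0 in OB, and mir-871, with 2336 to 3648 counts, had 1 and 0. The libraries were made with single-index primers, and the part of reads assigned to the wrong library in these traces was not tested.

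**Figure D3:**
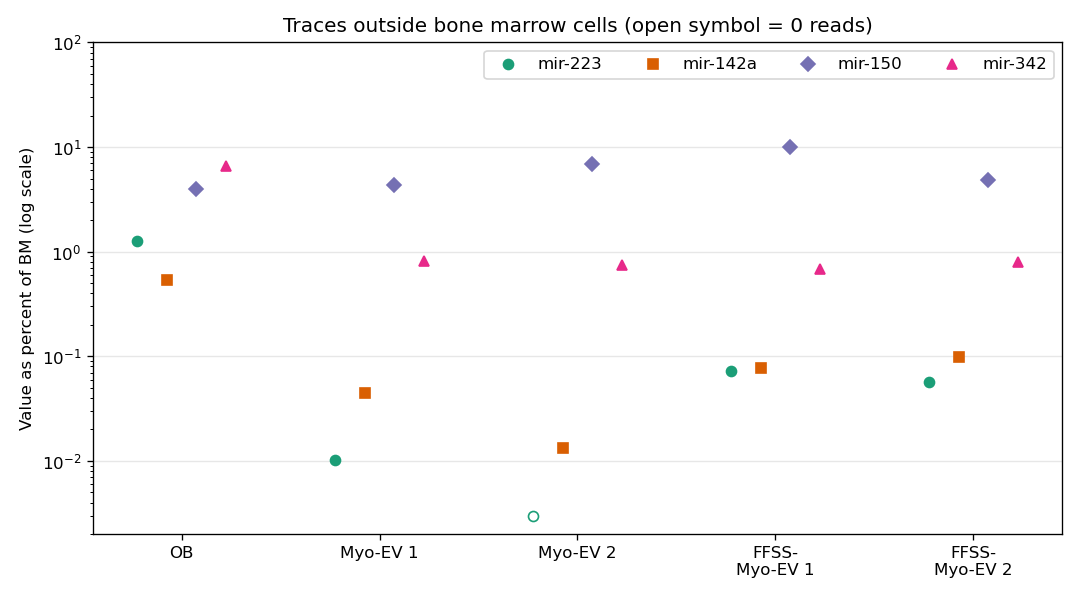
Value of each member in OB and in the 4 EV libraries as a percent of its BM value (log scale), with the open symbol for 0 reads. In the EV libraries mir-150 lies between 4.36% and 10.1% (from 3 to 7 counts, near the floor of 3), mir-342 between 0.687% and 0.813%, and mir-223 and mir-142a at or below 0.0977%.

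The entry mir-142b followed mir-142a in the cells. It overlaps mir-142a on chromosome 11 from 87756841 to 87756955 on the minus strand, and the reverse complement of the whole mir-142a hairpin lies within the mir-142b hairpin. Its value was 5825.1 in BM (14666 counts), 22.6 in OB (41 counts), 0 in each Myo-EV library, and 3.0 and 7.8 under FFSS. The count was 64.2% of that of mir-142a in BM and 46.1% in OB. The mature miR-142a-5p printed above finds its closest ungapped match in the mir-142b hairpin with 3 mismatches of 21 bases, miR-142a-3p with 4 of 23, and miR-142b matches the mir-142a hairpin with 3 of 20. The mismatches and the strand allowed in the authors' matching are not given in the sources used here, so the split of reads between mir-142a and mir-142b is uncertain.

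The effect of FFSS on the vesicles was tested with edgeR's quasi-likelihood test on the counts of the 4 EV libraries. At an adjusted p below 0.05, FFSS-Myo-EVs were higher for 12.1% and lower for 18.4% of the 354 entries whose mean value reached 10, that is for 43 and 65 entries. With the authors' scaling in place of TMM factors the split was 54 higher and 39 lower. Among the members, only mir-342 passed the filter on low values. Its log2 fold change was -0.20 with a standard error of 0.314 (edgeR, Benjamini-Hochberg adjusted p = 0.707), and the ratio of the groups was 0.952 with a counting interval of 0.724 to 1.23. The direction was the same in 13 alternative analyses, with log2 fold changes from -0.25 to -0.06 and adjusted p from 0.579 to 0.921.

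The 3 other members were fitted without the filter, together with 893 entries in all, of which 4.82% were called higher. The log2 fold change of mir-223 was 3.08 (standard error 1.19, adjusted p = 0.0758 in the edgeR fit), that of mir-142a 1.32 (0.784, adjusted p = 0.393), and that of mir-150 0.26 (0.805, adjusted p = 0.896). As single EV libraries were left out, the log2 fold change of mir-223 ran from 2.37 (without Myo-EV library 2) to 5.52 (without Myo-EV library 1), with edgeR adjusted p from 0.0545 to 0.475, and that of mir-142a from 0.81 to 2.46 without the same libraries, with adjusted p from 0.165 to 0.833. None of the 3 passed the threshold in edgeR, although the unadjusted p of mir-223 was 0.00993, and DESeq2 gave them no adjusted p. At 1 count against 12 the ratio of FFSS-Myo-EVs to Myo-EVs for mir-223 was 12.5 with a counting interval of 1.71 to 493. Summed over mir-223, mir-142a and mir-150, the Myo-EV libraries held 8 and 5 counts and the FFSS-Myo-EV libraries 21 and 16. The entry mir-142b had 0 counts in Myo-EVs against 10 in FFSS-Myo-EVs, at least 3.28-fold higher with 3 counts over the Myo-EV group as the floor. It was called (adjusted p = 0.0363 in edgeR without a filter) but not with the replicate number as a block (adjusted p = 0.106), nor without Myo-EV library 1 (0.107), Myo-EV library 2 (0.0723), FFSS-Myo-EV library 1 (0.0720) or FFSS-Myo-EV library 2 (0.608).

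Of the other blood-borne miRNAs on the lists, mir-451a, mir-126a and mir-122 passed the filtered test between the vesicle groups. Among the members, only mir-342 was in that test, and it was not called. The 3 other members were fitted only without the filter, where mir-122 was not called either (adjusted p = 0.0619 in edgeR). The erythrocyte miRNA mir-451a stood at 3.0 and 4.8 without FFSS and at 25.9 and 17.7 with it. It rose by 2.36 on the log2 scale (SE 0.519, edgeR adjusted p = 6.79e-05) and was called in 13 of 13 alternative analyses. The endothelial and platelet miRNA mir-126a rose from 30.95 ± 11.5 (SD, n = 2) to 92.4 ± 11.6 (SD, n = 2). Its log2 fold change was 1.43 (adjusted p = 0.000162 in edgeR), but the call was lost without FFSS-Myo-EV library 1 (adjusted p = 0.0705). The liver miRNA mir-122, which circulates in serum, rose from 5.4 ± 0.849 (SD, n = 2) to 16.7 ± 1.70 (SD, n = 2), with a log2 fold change of 1.47 (adjusted p = 0.0132 in edgeR). This call was lost without Myo-EV library 1 (adjusted p = 0.0594), Myo-EV library 2 (0.0813) or FFSS-Myo-EV library 1 (0.116), and without the filter (0.0619). The erythroid mir-144 was under the filter, with 4 and 0 counts without FFSS and 4 and 7 with it.

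Not all serum or erythroid miRNAs rose, and higher values with FFSS were not limited to blood-borne miRNAs. For example, mir-148a, which had its highest value in OB (202103.7), had a log2 fold change of 1.01 (edgeR adjusted p = 0.000838). Of the 8 serum entries, 7 were tested, 2 were higher (mir-122 and mir-451a) and 0 were lower, with a median log2 fold change of -0.04, against -0.03 over all entries tested, of which 12.1% were higher and 18.4% lower. Since mir-122 and mir-451a passed the filter only through FFSS-Myo-EVs, nothing is read from this count. Of the 3 erythroid entries tested, 1 was higher and 0 were lower, too few to set against those shares, and mir-486a and mir-486b had log2 fold changes of -0.04 and 0.04 (adjusted p = 0.942 and 0.935 in edgeR). The medium was made with bovine serum depleted of vesicles and the labels name only C2C12 cells in the culture. The part of serum or of another cell type in the rise of mir-451a, mir-126a and mir-122 and in the traces of mir-223 and mir-142a was not tested.

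**Figure D4:**
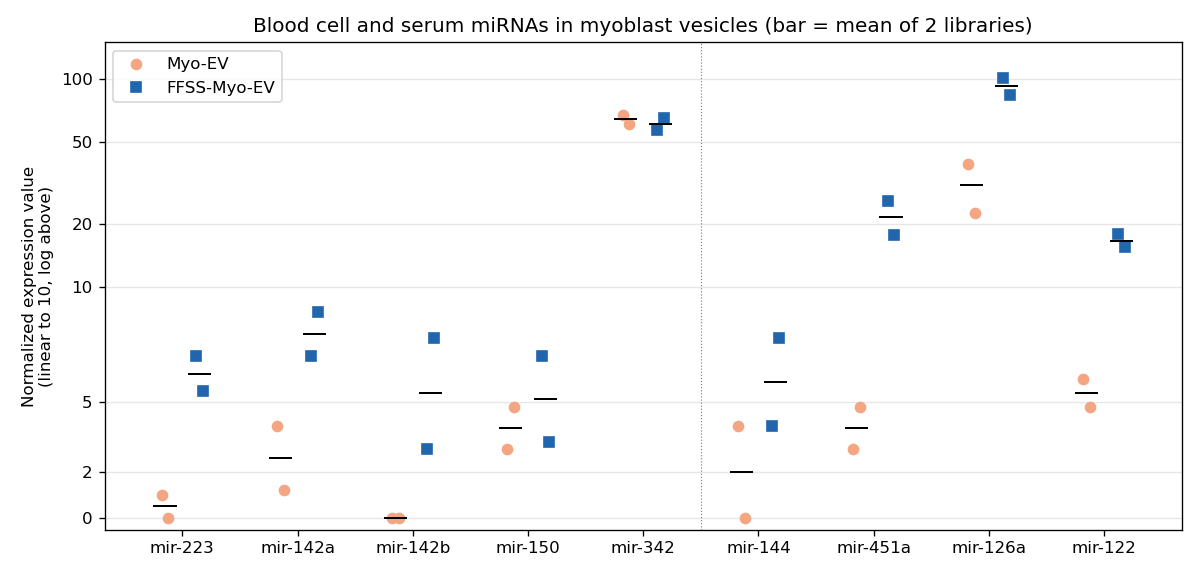
Normalized expression value (linear up to 10 and logarithmic above) of the leukocyte miRNAs and mir-142b (left of the dotted line) and of other blood-borne miRNAs (right) in 2 Myo-EV and 2 FFSS-Myo-EV libraries, with bars for the means. Both FFSS-Myo-EV libraries are above both Myo-EV libraries for mir-223, mir-142a, mir-142b, mir-451a, mir-126a and mir-122. The groups overlap or touch for mir-150, mir-342 and mir-144. The share of all entries that separate in this way was not computed, and nothing is read from the separation alone.

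Among other miRNAs known from leukocytes, most were not restricted to the marrow. The list held 13 entries, of which 9 were above OB in BM, where the median ratio over all entries tested was 1.16. The share of all entries above OB was not computed, so nothing is read from the count of 9. At least 10-fold above OB were 4, beside 9.11% of all entries tested, namely mir-146a (17.9-fold), mir-139 (60.0-fold), mir-511 (27.2-fold) and mir-196b (272-fold against 1 count, 48.5 to 10766, or 90.6-fold with the denominator set to 3 counts). Only mir-146a (43.0-fold) and mir-511 (at least 243-fold, 0 counts in the EVs) were also at least 10-fold above the EVs. The entries mir-511 and mir-196b reached the mean of 10 over BM and OB only through BM. The entry mir-147 (14.3 in BM, 3.3 in OB) did not reach it, so nothing is read from the count of 4 beside that share. The inflammatory mir-155 was lower in BM than in the EVs, at 0.311 of their mean (0.289 to 0.333), and mir-196b, from a Hox cluster, was at 0.0225 of it.

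Of the 11 entries of this list tested in the vesicles, 2 were higher in FFSS-Myo-EVs (mir-155 and mir-139), 2 were lower (mir-146b and mir-181b-2), and the median log2 fold change was 0.0007. This is near the shares of 12.1% higher and 18.4% lower over all entries tested. The log2 fold change was 0.52 for mir-139, -0.55 for mir-146b and -0.40 for mir-181b-2. Without FFSS-Myo-EV library 1 or 2, the calls of mir-139 (adjusted p = 0.163 and 0.167 in edgeR), mir-146b (0.0798 and 0.261) and mir-181b-2 (0.0938 and 0.456) were lost, whereas that of mir-155 was kept in 14 of 14 alternative analyses. The call of mir-181b-2 was also lost in 4 others, with library totals, the authors' scaling and limma at both pseudocounts.

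As a description of likeness, Pearson's r of the log2 values (pseudocount of 1) was computed over the 6 libraries, which share depth and scaling within a library, against each of 306 or 307 entries that reach a value of 100. Between members, r was 0.985 for mir-223 and mir-142a, 0.972 for mir-223 and mir-342, 0.975 for mir-142a and mir-342, and from 0.809 to 0.874 for mir-150 with each of the others. The entries most like mir-142a were mir-142b (0.990), mir-146a (0.986) and mir-223 (0.985). Those most like mir-342 were mir-511 (0.999), mir-361 (0.986) and mir-425 (0.985), those most like mir-223 were mir-26b (0.988), mir-23a (0.987) and mir-19b-2 (0.986), and those most like mir-150 were mir-486a (0.985), mir-1839 (0.983) and mir-1198 (0.982). This measure compares the shape of a profile and not its size, since mir-26b had a value of 16059.2 in BM and 7508.4 in OB. With a pseudocount of 10 only 4 of these 12 entries were named again.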

How the data were processed

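The authors grouped the reads by sequence and matched them to miRBase in CLC Genomics Workbench. The deposited counts are whole numbers per precursor entry without normalization. The deposited normalized expression values are a signal that the authors made from them by conversion to a total of 1000000 and scaling with means and a trimming percentage of 5, which amounts to 1 constant per library. The miRBase release is not given in the sources used here. Total counts per library were 2414132 to 6092460.

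Ratios used the count multiplied by the constant, before rounding to 1 decimal. Their intervals are exact binomial intervals of the summed counts. For single ratios, a denominator of 0 counts was set to 3 counts and the ratio given as a lower bound. For the shares of entries at least 10-fold higher and the plot of ratios, every denominator under 3 counts was set to 3. BM and OB have 1 library each, so no test was made with them. Myo-EVs and FFSS-Myo-EVs were compared with edgeR 4.0.16 in R 4.3.3 (TMM factors, quasi-likelihood test, Benjamini-Hochberg adjustment over every entry whose mean value reached 10), which was checked on simulated counts. The labels do not say that the 2 libraries of a group come from separate cultures, so p-values measure the spread between these libraries, which may be technical. With 2 libraries against 2, an exact permutation test cannot give a p below 0.333.

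Named entries were the 4 members, mir-142b, the 3 entries most like each member, and the leukocyte, erythroid, endothelial, serum and vesicle lists, and mir-21a and mir-338 were singled out after their values were seen. Members and lists were chosen with earlier results of these data known. Alternatives were DESeq2 1.42.0, limma 3.58.1 with pseudocounts of 1 and 10, other scalings and filters, all 6 libraries in the fit, the replicate block, other folds, and EV libraries left out in turn. Fits without a filter combined with a second change were added after seeing the data. Ratios and intervals were computed in Python 3.11.15 with scipy 1.17.1.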

Additional observations from a re-analysis of the deposited data

How the results depend on the processing

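The log2 fold change of mir-342 was negative and not called in each of 13 alternatives. The members at least 10-fold higher in BM than in the EVs numbered 4 in each alternative but a fold of at least 100, with 3. For BM over OB, 4 members passed except with a fold of at least 100, which left 1, mir-142a. For OB over the EVs, 1 member passed, against 3 with median-of-ratios scaling, TMM scaling or a fold of at least 2, and 0 with a fold of at least 100, and from 1 to 2 as single EV libraries were left out. The ratios of mir-142a and mir-342 lie close under 10, at 9.34 and 8.71. That of mir-142a ran from 7.43 to 12.1 as single EV libraries were left out, and the cause of these changes was not tested. In the vesicles, 43 entries were called higher and 65 lower. The lower calls numbered 39 with the authors' scaling and 37 with limma at either pseudocount, with 54, 57 and 56 higher calls. Calls ranged from 19 to 60 higher and from 21 to 72 lower as single EV libraries were left out, fewest without an FFSS-Myo-EV library, and the cause was not tested. With the replicate block, 44 were higher and 66 lower, and log2 deviations of libraries of the same number correlated at 0.209 over 2 pairs, while no source ties equal numbers together. Without a filter, the log2 fold change of mir-150 was -0.004 without Myo-EV library 1 and -0.39 without FFSS-Myo-EV library 1. For likeness of profile, 4 of 12 named entries were shared with a pseudocount of 10. At 13 to 20 counts over the 4 EV libraries, depth limits what can be said of mir-223, mir-142a and mir-150 in vesicles.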
